A study of Mus musculus with 4 samples.

Results

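The miR-99/100 and miR-125 families are small groups of near-identical microRNAs (miRNAs), the short RNAs that guide Argonaute proteins to messenger RNAs. Their members were taken from the deposited count files by name: every row that is miR-99a, miR-99b, miR-100, miR-125a or miR-125b once the arm mark and copy number are removed. This gave 9 rows of the 590 miRNA names listed in any library: mmu-miR-99a, mmu-miR-99b, mmu-miR-99b*, mmu-miR-100, mmu-miR-125a-5p, mmu-miR-125a-3p, mmu-miR-125b-5p, mmu-miR-125b* and mmu-miR-125b-3p, written below without the species prefix. All 9 passed the filter on low counts, which kept 442 names. The names were chosen without regard to their values here, but with earlier results of these data known.

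The libraries are small RNA from synovial fibroblasts, the mesenchymal lining cells of the joint, grown from hind joints of 8-week-old mice and sequenced at passage 4. The TghuTNF group (2 biological replicates) carries a human TNF transgene, a mouse model of inflammatory arthritis. The WT group (2 biological replicates) consists of wild type littermates, and both groups have the mixed strain background CBA/J * C57BL/6/J. The sources used here give neither the promoter of the transgene nor whether a culture came from 1 mouse or several. By flow cytometry the submitters found most cells positive for CD90.2 and VCAM-1 and few positive for the macrophage marker Mac1. The question was which miRNAs differ between fibroblasts of arthritic mice and of healthy littermates.

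miRNAs act mainly through the seed, bases 2 to 8 from the 5′ end, which pairs with target sites. The miR-125 family is the mammalian counterpart of lin-4, the first miRNA found in the nematode, and has been reported to repress Lin28a and, in immune cells, Tnf and the NF-kB inhibitor Tnfaip3. The miR-99/100 family has been reported in human cells to repress MTOR and IGF1R. In vertebrates the families are encoded side by side, with a let-7 hairpin between them.

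The mature sequences of the main arms are shown because the seed defines each family and the bases outside it decide which reads can be told apart. They are from RefSeq (GRCm38.p6), written 5′ to 3′ with the seed in capitals. Of the 9 member rows, 7 matched the RefSeq table by name.
miR-99a: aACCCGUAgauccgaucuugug
miR-100: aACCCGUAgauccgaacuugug
miR-99b: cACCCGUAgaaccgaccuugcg
miR-125b-5p: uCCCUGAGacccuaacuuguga
miR-125a-5p: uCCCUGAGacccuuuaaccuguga

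miR-99a, miR-100 and miR-99b shared the seed ACCCGUA, and no other mouse miRNA in the RefSeq table had it. miR-99a and miR-100 differed at a single base, U16A counted from the 5′ end of miR-99a. miR-99b differed from miR-99a at 4 positions (A1C, U11A, U16C and U21C), more than the 2 mismatches the authors allowed. miR-125a-5p (24 bases) and miR-125b-5p (22 bases) shared the seed CCCUGAG and their first 13 bases. The same seed occurs in miR-351, whose sequence departs after 8 bases.
miR-351: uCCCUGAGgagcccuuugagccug

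The opposite arms of the hairpins have other seeds and so other predicted targets. They are shown because the arms are compared below.
miR-99b*: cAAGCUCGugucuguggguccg
miR-125a-3p: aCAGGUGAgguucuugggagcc
miR-125b-1-3p: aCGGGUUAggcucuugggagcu
miR-125b-2-3p: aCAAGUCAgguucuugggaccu
The last pair are the 3p arms of Mir125b-1 and Mir125b-2. The files use the older names miR-125b* and miR-125b-3p for such arms, and the sources used here do not say which name belongs to which hairpin.

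The hairpins form 3 clusters, given in GRCm38 on the plus strand. On chromosome 17, Mir99b (17830188 to 17830257), Mirlet7e (17830352 to 17830444) and Mir125a (17830812 to 17830879) lie within 692 bases of Spaca6, the first pair in an intron and Mir125a partly over an annotated exon. On chromosome 16, Mir99a (77598936 to 77599000), Mirlet7c-1 (77599657 to 77599750) and Mir125b-2 (77646273 to 77646343) lie in introns of the non-coding gene Mir99ahg. On chromosome 9, Mir100 (41531425 to 41531504), Mirlet7a-2 (41536716 to 41536811) and Mir125b-1 (41581926 to 41582002) lie within 3110039I08Rik, a synonym of Mir100hg, in introns of that gene. Mir125b-1 also lies in an exon of a transcript of the gene Gm28119. The Mir125b-1 and Mir125b-2 hairpins give the same miR-125b-5p, so its reads cannot be assigned to chromosome 9 or 16.

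Total matches were 27362819 and 22959408 in the TghuTNF libraries and 16680860 and 26542371 in the WT libraries. Levels are in CPM, matches per 1000000 after TMM scaling. The limit set by a count of 0 (3 counts) was 0.109 to 0.183 CPM, and the lowest member value was 20.8 CPM. Reads carry no molecular identifiers, so binomial intervals cover counting error only, while the intervals of fold changes come from the spread between libraries. TghuTNF replicate 2 stood apart, with 11.7% of its matches at 2 mismatches against 8.21% in TghuTNF replicate 1 and 8.64% and 8.72% in the WT libraries. Of 9 fibroblast marker miRNAs 8 were present, of which 2 rose (miR-22 and miR-140), 1 fell (miR-214) and 5 did not pass, with a summed level of 291470 and 316157 CPM in TghuTNF and 286130 and 299393 CPM in WT. Markers of other cells had lower summed levels, although single ones were not all lower. Muscle miR-206 had means of 1268 CPM in TghuTNF and 1836 CPM in WT, against 136 and 80.8 CPM for fibroblast miR-145. Some markers of other cells moved with genotype: miR-223 of blood cells rose, while endothelial miR-126-3p and epithelial miR-203 fell. The other 3 epithelial miRNAs tested (miR-200b, miR-200c and miR-141) had positive log2 fold changes and did not pass, and the lower epithelial sum in TghuTNF is that of miR-203. Their summed CPM in TghuTNF and then WT libraries were 28.8 and 21.6 against 16.1 and 6.39 for 5 blood cell miRNAs, 68.8 and 66.7 against 127 and 108 for both endothelial ones, 36.8 and 30.7 against 67.7 and 70.9 for 7 epithelial ones, and 2054 and 1783 against 2426 and 3008 for 4 muscle ones. Of these, miR-200a was at 0 in WT replicate 1 and miR-429 in WT replicate 2. The 4 cartilage miRNAs of mir-140 and mir-455, of which 2 rose and 2 fell, summed to 18526 and 26041 CPM in TghuTNF and 12315 and 13108 CPM in WT. The part of these cells in the members' values was not tested, and in bulk cultures fewer cells of a type and less RNA per cell cannot be told apart.

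Together the families were among the major miRNAs of these fibroblasts. The miR-125 seed group (miR-125a-5p and miR-125b-5p) took 5.21% and 4.31% of matches in the TghuTNF libraries and 3.90% and 4.38% in the WT libraries. The miR-99/100 seed group took 2.62% and 2.29% in the TghuTNF libraries and 2.44% and 2.33% in the WT libraries. Counting error was small: the exact 95% binomial interval of the miR-125 share in WT replicate 1, the shallowest library, was 3.89% to 3.91%. The genotypes overlapped for both groups on all matches. On perfect matches the miR-125 group took 6.21% and 5.19% in TghuTNF and 4.395% and 5.11% in WT, without overlap. These shares are of library totals, without TMM scaling. Of the 380 single miRNAs tested on perfect matches, 60.3% did not overlap between genotypes in CPM.

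A read covers a whole mature miRNA, so CPM of miRNAs need no division by length, although ligation efficiency can differ between sequences. By mean CPM over the 4 libraries the order was miR-125b-5p (35497), miR-99b (16546), miR-125a-5p (8960), miR-100 (6294), miR-99a (1364), miR-125b-3p (518), miR-125b* (82.2), miR-99b* (62.1) and miR-125a-3p (25.9). The order was the same in each of the 4 libraries, and no member's range over the libraries overlapped that of the next. miR-125b-5p ranked 7 among all miRNAs, miR-99b 11, miR-125a-5p 21, miR-100 25 and miR-99a 52.

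**Figure D1:**
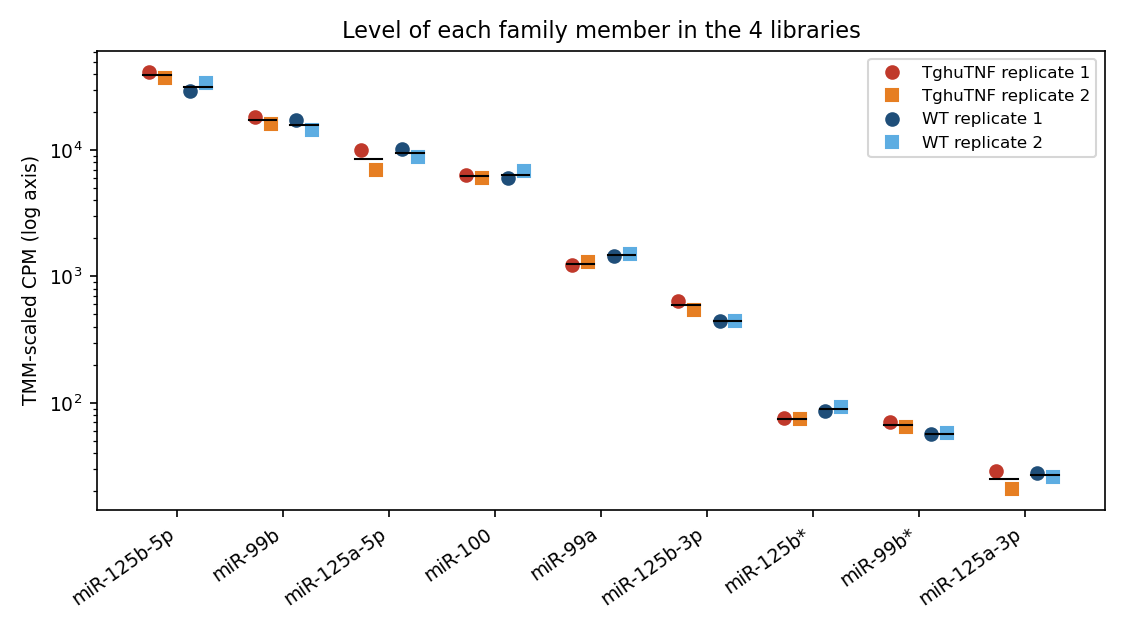
TMM-scaled CPM (log axis) of the 9 members in each library, TghuTNF left and WT right of each name, with a bar at each genotype's mean (n = 2). The members span from 25.9 CPM for miR-125a-3p to 35497 CPM for miR-125b-5p, and the 4 libraries of a member lie close together.

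None of the 9 members passed the test between genotypes. With edgeR's quasi-likelihood test, 0 had an adjusted p under 0.05 (Benjamini-Hochberg over the 442 names) and 0 an unadjusted p under 0.05. Of all tested miRNAs 13.3% were called (4.75% rose and 8.60% fell in TghuTNF cells), and the share at an unadjusted p under 0.05 was 29.0%. DESeq2 also called 0 members, with 1 at an unadjusted p under 0.05. Of the 9, 4 had a positive log2 fold change, with a median of -0.046, beside 224 of 442 and a median of 0.0056 over all tested miRNAs. The libraries of the genotypes did not overlap for 5 of 9 members, 3 with TghuTNF above WT and 2 below, against 60.6% of all tested miRNAs (30.8% with TghuTNF above WT). The members' share without overlap was thus close to that of the whole table.

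**Figure D2:**
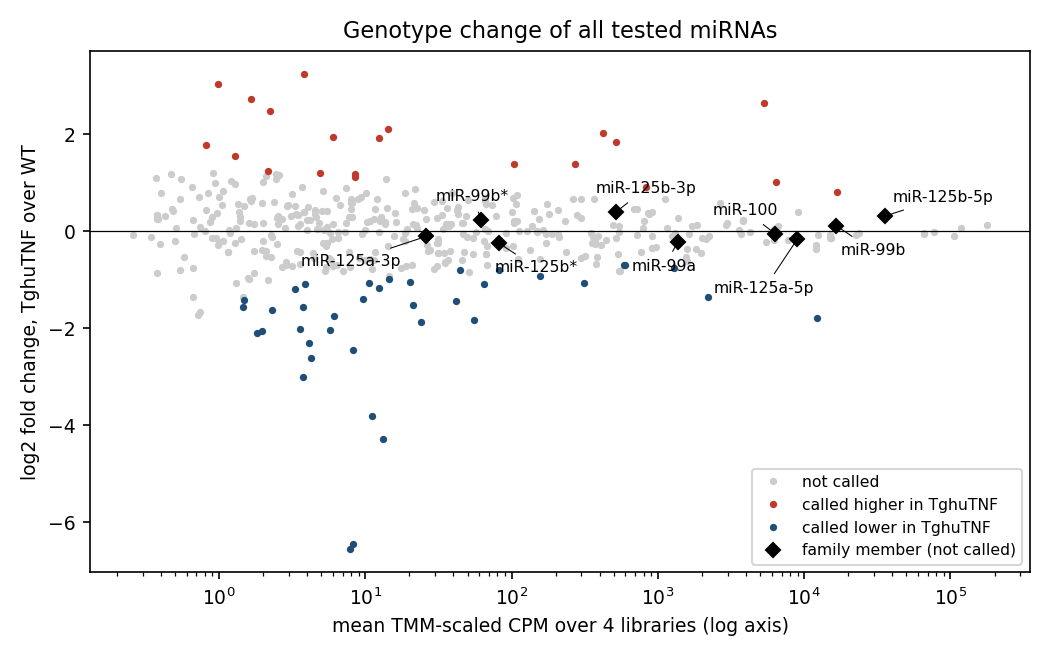
Log2 fold change of TghuTNF over WT against mean CPM over 4 libraries (log axis) for the 442 tested miRNAs, with the 9 members as black diamonds and called miRNAs in red (higher in TghuTNF) or blue (lower). The members lie between -0.25 and 0.40, inside the band of miRNAs that were not called.

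miR-125b-5p, the most abundant member, had 41693 and 36960 CPM in the TghuTNF libraries and 29489 and 33844 CPM in the WT libraries. Both TghuTNF libraries lay above both WT libraries. Its log2 fold change was 0.31 ± 0.15 (SE; 95% interval -0.026 to 0.65), 1.24-fold, and it did not pass (edgeR adjusted p = 0.20). The interval reaches 1.57-fold at its upper end. With perfect matches only the TghuTNF libraries again lay above the WT libraries, at 55440 and 47952 against 39094 and 46258 CPM of perfect matches (log2 fold change 0.28 ± 0.15 (SE), edgeR adjusted p = 0.27). Leaving out 1 library gave a log2 fold change of 0.14 (without TghuTNF replicate 1) to 0.41 (without WT replicate 2).

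miR-125a-5p, which shares the miR-125b seed but comes from chromosome 17, had 9976 and 6930 CPM in the TghuTNF libraries and 10099 and 8835 CPM in the WT libraries. TghuTNF replicate 1 lay beside the WT libraries and TghuTNF replicate 2 below all others. The log2 fold change was -0.16 ± 0.19 (SE; 95% interval -0.58 to 0.26; edgeR adjusted p = 0.62). It depended on TghuTNF replicate 2: without that library it was 0.051, and without TghuTNF replicate 1 it was -0.53. It also depended on the mismatches allowed. With all libraries it was 0.072 at 1 mismatch or fewer and -0.0053 with perfect matches only (edgeR adjusted p = 0.839 and 0.985).

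In the miR-99/100 family, miR-99b had 18341 and 16073 CPM in TghuTNF and 17339 and 14432 CPM in WT, with the genotypes interleaved. Its log2 fold change was 0.12 ± 0.16 (SE; 95% interval -0.24 to 0.47; edgeR adjusted p = 0.68). miR-100 had 6380 and 6006 CPM in TghuTNF and 5998 and 6794 CPM in WT. Both TghuTNF libraries fell between the WT libraries, and the log2 fold change was -0.046 ± 0.15 (SE; 95% interval -0.39 to 0.29; edgeR adjusted p = 0.87). As fold changes, the intervals ran from 0.847 to 1.39 for miR-99b and from 0.765 to 1.23 for miR-100.

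miR-99a had 1228 and 1291 CPM in TghuTNF and 1439 and 1500 CPM in WT, both TghuTNF libraries below both WT libraries. Its log2 fold change was -0.22 ± 0.16 (SE; 95% interval -0.58 to 0.14; edgeR adjusted p = 0.38). The separation was lost with perfect matches, where the libraries had 396 and 406 CPM in TghuTNF and 352 and 445 CPM in WT and the log2 fold change was 0.010 ± 0.20 (SE; edgeR adjusted p = 0.98).

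The opposite arms, which are usually degraded after the hairpin is cut, were less abundant than their partners in every library. miR-125b-3p had 640 and 540 CPM in TghuTNF and 448 and 446 CPM in WT, and miR-125b* had 76.3 and 74.0 CPM in TghuTNF and 86.4 and 92.1 CPM in WT. The genotypes did not overlap for either arm, and the directions were opposite: 0.40 ± 0.18 for miR-125b-3p and -0.25 ± 0.21 for miR-125b* (log2 fold change, SE; edgeR adjusted p = 0.17 and 0.46). Perfect matches made up 1.79% of the reads of miR-125b-3p and 14.5% of those of miR-125b*, and 87.1% and 66.6% had 2 mismatches, so the identity of both is uncertain. On perfect matches miR-125b-3p had 14.1 and 14.4 CPM in TghuTNF and 17.4 and 10.3 CPM in WT, with a log2 fold change of 0.046 ± 0.31 (SE; edgeR adjusted p = 0.92).

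miR-99b* had 70.4 and 64.1 CPM in TghuTNF and 56.5 and 57.3 CPM in WT, without overlap (log2 fold change 0.24 ± 0.22 (SE), edgeR adjusted p = 0.50). miR-125a-3p had 29.1 and 20.8 CPM in TghuTNF and 27.8 and 26.0 CPM in WT, with TghuTNF replicate 2 the lowest, as for miR-125a-5p (-0.11 ± 0.25 (SE), edgeR adjusted p = 0.81). Of the reads of miR-125a-3p 17.9% were perfect and 30.7% had 2 mismatches, so its identity is uncertain too.

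Each arm was then set against its partner within a library, which removes library scaling. miR-125b-5p comes from both the Mir125b-1 and Mir125b-2 hairpins, so its ratios to miR-125b* and miR-125b-3p are not those of a single hairpin. It outnumbered miR-125b* 546-fold and 499-fold in the TghuTNF libraries and 341-fold and 368-fold in the WT libraries. All TghuTNF values lay above the WT values, a change of 0.56 ± 0.25 in the log2 ratio (SE), which did not pass (limma adjusted p = 0.705, unadjusted p = 0.064). The size of this ratio depends on the mismatches allowed: on perfect matches it was 3948 and 3007 in TghuTNF and 2150 and 2185 in WT (change 0.67, limma adjusted p = 0.545). The ratio of miR-125b-5p to miR-125b-3p was 65.1 and 68.4 in TghuTNF and 65.9 and 75.9 in WT (change -0.084 ± 0.26 (SE), limma adjusted p = 0.94). Its size also depends on the mismatches allowed. On perfect matches it was 3934 and 3324 in TghuTNF and 2246 and 4465 in WT (change 0.19, limma adjusted p = 0.903). For miR-125a the arm ratio was 343 and 332 in TghuTNF and 363 and 339 in WT, with overlap. On perfect matches it was 811 and 846 in TghuTNF and 778 and 638 in WT, without overlap (change 0.23, limma adjusted p = 0.902). For miR-99b the arm ratio was 261 and 251 in TghuTNF and 307 and 252 in WT. On perfect matches it was 208 and 197 in TghuTNF and 238 and 196 in WT, with overlap in both counts. Over all 116 arm pairs tested on all matches, limma called 0 (0.00%), and 6 (5.17%) had an unadjusted p under 0.05. Of the 116 pairs, 39.7% did not overlap between genotypes, beside 1 of the 4 member pairs. The share without overlap on perfect matches was not computed.

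The mismatch classes show how differently reads of these names matched their listed sequence. Over the 399 names with at least 100 matches in the 4 libraries together, the median share of perfect matches was 63.8%, and 39 names were under 5%. miR-125b-5p was mostly perfect, 93.8% and 87.2% of matches in TghuTNF and 93.0% and 93.8% in WT. miR-125a-5p had 42.6% and 39.3% perfect in TghuTNF and 35.9% and 38.3% in WT, and nearly all its other matches had 2 mismatches: 55.2% and 56.6% in TghuTNF, 62.2% and 59.7% in WT. Matches with exactly 1 mismatch were scarce for this miRNA, at 1.89% to 4.08% in the 4 libraries.

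For miR-100 and miR-99a the single-mismatch class was the largest. miR-100 had 63.8% and 65.04% of its matches there in TghuTNF and 69.9% and 67.0% in WT, and miR-99a had 71.3% and 71.2% in TghuTNF and 76.1% and 74.3% in WT. In each of the 4 libraries miR-100 had more perfect matches than miR-99a had matches of every class: 58638 against 33909 and 39981 against 29078 in TghuTNF, 26558 against 23638 and 55952 against 40825 in WT. So the perfect reads of miR-100 cannot all have been counted for miR-99a as well, although the sequences are 1 base apart. They could still make up the whole single-mismatch class of miR-99a, its largest. That class held 24178 and 20689 reads in TghuTNF and 17987 and 30316 in WT. Whether it holds reads of miR-100 was not tested. In the other direction, the 4050 to 8303 perfect reads of miR-99a could all lie among the 68841 to 123860 single-mismatch reads of miR-100, and whether they do was not tested.

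**Figure D3:**
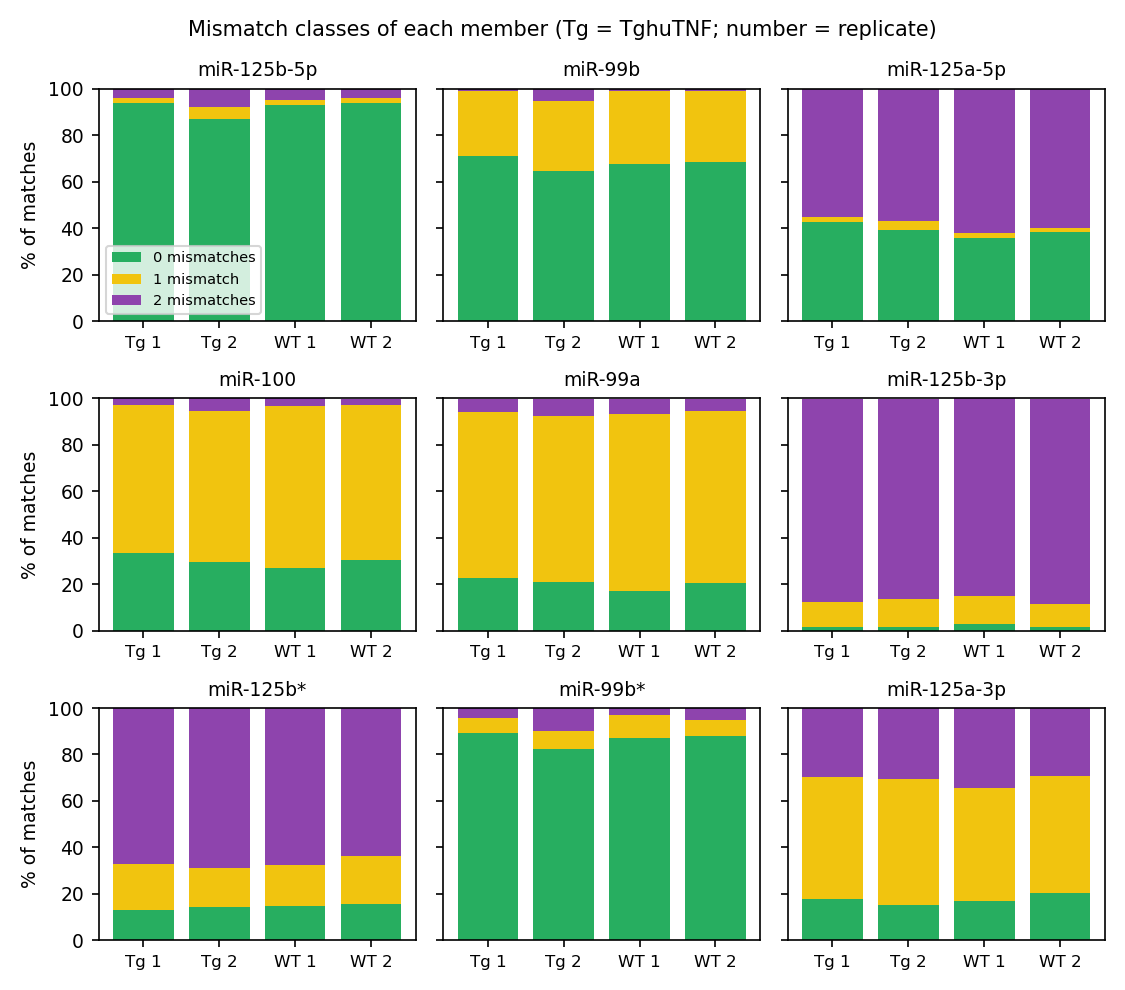
Percent of each member's matches with 0, 1 and 2 mismatches in the TghuTNF libraries (left bars) and WT libraries (right bars). The profiles differ more between members than between libraries: miR-125b-5p is mostly perfect, miR-100 and miR-99a mostly at 1 mismatch, and miR-125a-5p, miR-125b* and miR-125b-3p mostly at 2.

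For 3 members (miR-99b, miR-125b-5p and miR-99b*) TghuTNF replicate 2 had the highest share of 2-mismatch reads and the lowest share of perfect ones. Its share of 2-mismatch reads was 5.06% for miR-99b, against 0.790% in TghuTNF replicate 1 and 0.948% and 0.815% in WT, and 7.84% for miR-125b-5p, against 3.76% in TghuTNF replicate 1 and 4.54% and 3.79% in WT. The odds of a perfect match changed between genotypes for 0 of 9 members by limma's test, with 0 at an unadjusted p under 0.05. Over all 365 miRNAs tested limma called 0 (0.00%), with 18 (4.93%) at an unadjusted p under 0.05. The libraries' odds did not overlap for 3 of 9 members, against 34.8% of all tested miRNAs. Without TghuTNF replicate 2 the change in log2 odds was 0.11 for miR-125b-5p, 0.21 for miR-99b and 0.22 for miR-99b*; with all libraries it was -0.47, -0.011 and -0.19 in the same order.

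Counting only perfect matches left the order of the 5 main arms as it was, put miR-99b* (77.7 CPM of perfect matches, mean of 4 libraries) above the arms of mir-125b, and lowered miR-125b-3p to 14.0. edgeR called 0 of 9 members on perfect matches, with 0 at an unadjusted p under 0.05, against 13.2% of the 380 miRNAs tested. The libraries did not overlap for 3 of 9 members, against 60.3% of all.

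**Figure D4:**
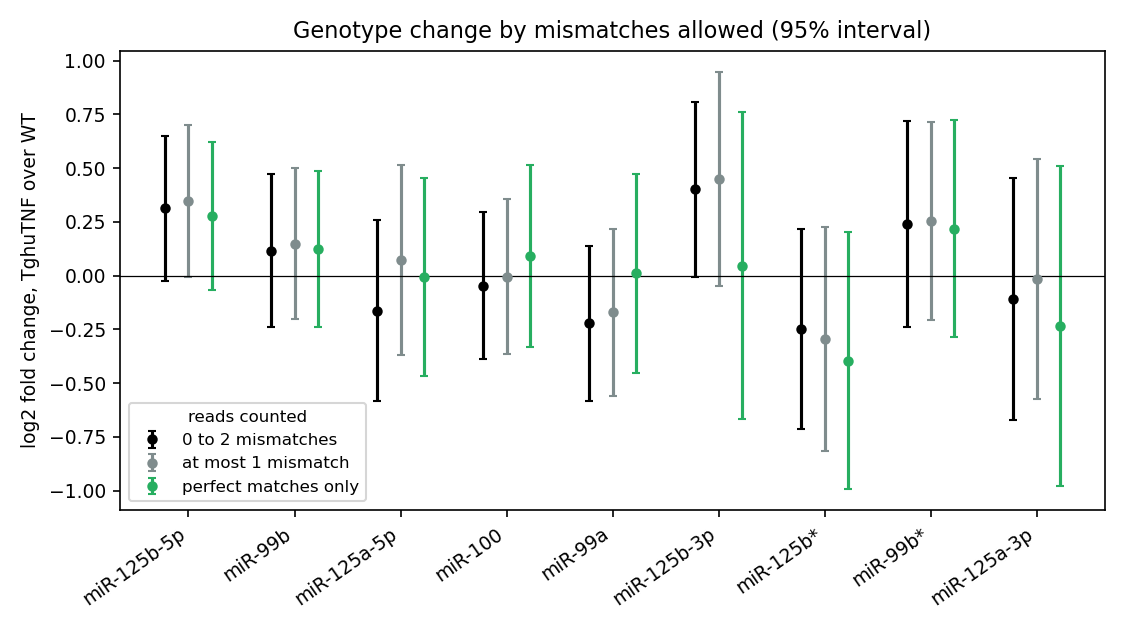
Log2 fold change of TghuTNF over WT for each member with reads of 0 to 2 mismatches, at most 1 mismatch, or perfect matches only; bars are 95% intervals from edgeR (n = 2 per genotype). Every interval includes 0, and the point for miR-99a shifts from -0.22 with all matches to 0.010 with perfect matches.

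The paralogs of a family were next compared within each library. The ratio of miR-125a-5p to miR-125b-5p was 0.239 and 0.188 in TghuTNF and 0.343 and 0.261 in WT, lower in both TghuTNF libraries by a mean log2 difference of -0.50. With 2 libraries a genotype the smallest p an exact permutation test can give is 0.333, which this ratio reached (two-sided). On perfect matches the ratio was 0.109 and 0.0844 in TghuTNF and 0.132 and 0.107 in WT, with overlap (-0.31, exact permutation p = 0.667). miR-99b outnumbered miR-99a 14.9-fold and 12.4-fold in TghuTNF and 12.1-fold and 9.62-fold in WT, but 46.7-fold and 37.9-fold against 47.5-fold and 32.5-fold on perfect matches. The ratios of miR-99a and miR-100 to miR-125b-5p and of let-7e to miR-99b were lower in both TghuTNF libraries on all and on perfect matches. Higher in both TghuTNF libraries on all matches were miR-99b to miR-99a, miR-100 to miR-99a and miR-99b to miR-125a-5p. On perfect matches the genotypes overlapped for each of these higher ratios. The 9 ratios computed share members, and no background over other pairs of miRNAs was computed, so these are descriptions of single ratios.

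The let-7 miRNAs of the same clusters, which hold back proliferation and Lin28a, were also compared with the members. Of 7 listed names 5 were measured, and 0 rose and 0 fell by edgeR (median log2 fold change -0.026). Of all 442 tested miRNAs 13.3% were called, so a count of 0 among 5 says little about these names. let-7e had 7006 and 4691 CPM in TghuTNF and 7351 and 5825 CPM in WT. Its low value in TghuTNF replicate 2 matched that of miR-125a-5p: from their own means the libraries lay at 0.19, -0.38, 0.26 and -0.072 for let-7e and at 0.17, -0.35, 0.19 and -0.0044 for miR-125a-5p (log2 CPM; TghuTNF replicates 1 and 2, then WT replicates 1 and 2). miR-99b of the same cluster lay at 0.15, -0.036, 0.073 and -0.19.

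Over the 4 libraries, let-7e had the pattern most like that of miR-125a-5p among 129 miRNAs outside the families with a mean of at least 100 CPM. The distance between centred log2 CPM was 0.11, against a median of 0.57, and miR-106a (0.16) and miR-20a (0.18) came next. The nearest to miR-125b-5p were miR-210 (0.14), miR-29a* (0.20) and miR-181c (0.21), with a median of 0.53. For miR-99b they were miR-345-3p (0.13), miR-1198 (0.13) and let-7a (0.16), with a median of 0.46. These distances describe 4 libraries and were not tested.

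**Figure D5:**
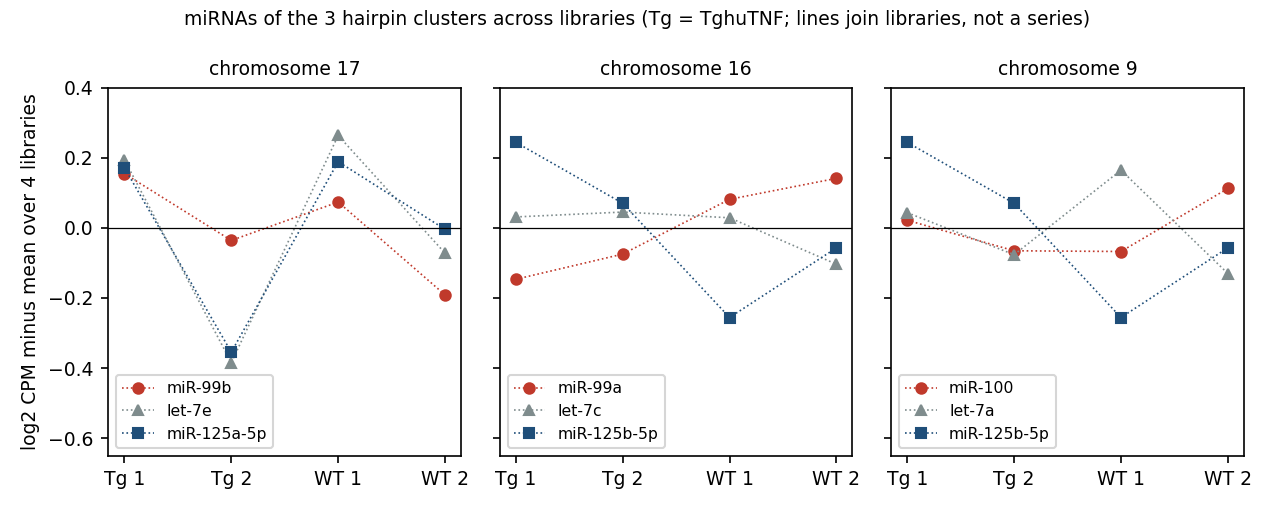
Log2 CPM minus the miRNA's own mean over 4 libraries, for the miRNAs of each hairpin cluster (TghuTNF replicates left, WT replicates right; miR-125b-5p appears under chromosomes 16 and 9, which both encode it). On chromosome 17, let-7e and miR-125a-5p follow each other with a low value in TghuTNF replicate 2, at -0.38 and -0.35, while miR-99b lies at -0.036.

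On chromosomes 16 and 9 the let-7 partners were set against the members of their cluster. let-7c had ratios to miR-99a of 98.5 and 94.7 in TghuTNF and 84.0 and 73.5 in WT, a mean log2 difference of 0.30. On perfect matches these ratios were 372 and 359 in TghuTNF and 414 and 308 in WT, with overlap (0.034). let-7a had ratios to miR-100 of 10.6 and 10.4 in TghuTNF and 12.3 and 8.85 in WT. let-7a and let-7c are also made from other loci, so their reads are not those of these clusters alone.

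Across the wider group of lin-4, let-7 and miR-99/10 relatives, 12 measured miRNAs lie outside the families. By edgeR's test 8.60% of all 442 tested miRNAs fell and 4.75% rose. Of the 12 outside the families 1 fell, a share close to that of the whole table. Among them 0 rose and 11 did not pass, with a median log2 fold change of 0.0078. The one that fell was miR-351, the X-linked miRNA with the miR-125 seed. It had 3.73 and 1.86 CPM in TghuTNF and 9.74 and 9.26 CPM in WT, a log2 fold change of -1.75 ± 0.35 (SE; edgeR adjusted p = 0.0064), and -1.76 with perfect matches. Its level was far below that of the seed-sharing miR-125a-5p and miR-125b-5p, which did not pass. miR-10a and miR-10b, relatives of miR-99/100 with the seed ACCCUGU, had log2 fold changes of 0.38 ± 0.18 and 0.40 ± 0.19 (SE) and did not pass (edgeR adjusted p = 0.19 and 0.18). They differ from each other by 1 base, and the perfect reads of each could all lie in the other's single-mismatch class. Few of their own reads were perfect, so the identity of both is uncertain. A library had 243 to 653 perfect reads of miR-10a among 13309 to 24655 matches. For miR-10b it had 978 to 2139 among 13938 to 25760.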

How the data were processed

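Per the file headers, the authors matched reads of 37 bases to 707 mouse mature miRNAs with mimap version 3d, allowing at most 2 mismatches (hash length 9). The deposited values are raw counts of matches per miRNA, and the other deposited field gives the reads with 0, 1 and 2 mismatches, whose sum falls slightly short of the count for some miRNAs. The sources used here do not give the miRBase release, the adaptor trimming or the rule for reads matching several miRNAs. Per the labels' protocols, RNA of 20 to 30 and 70 to 100 nucleotides was cut from a gel.

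Counts were filtered with filterByExpr, scaled with TMM and tested over all miRNAs with edgeR 4.0.16 in R 4.3.3 (quasi-likelihood, genotype only, Benjamini-Hochberg, threshold 0.05). CPM are TMM-scaled, those of perfect matches relative to perfect matches alone; intervals of fold changes use the fit's degrees of freedom. Arm ratios (5p over 3p, or a name over its star form) and odds of a perfect match (at least 20 matches in every library) were tested with limma 3.58.1 on log2 values with a pseudocount of 0.5. Alternatives included DESeq2 1.42.0. The tests were run on simulated counts with planted changes larger than those of the members, so that check does not cover changes of the members' size. Names printed were all members, their let-7 neighbours, seed relatives, miR-10a and miR-10b, 3 nearest patterns of 3 members, and cell type markers. Members and lists were chosen with earlier results of these data known. The labels call the libraries biological replicates; p-values rest on the spread of 2 cultures a genotype.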

Additional observations from a re-analysis of the deposited data

How the results depend on the processing

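In 12 alternatives (other scalings and DESeq2, other filters, each library left out, a replicate block, fewer mismatches), 0 members were called; 97 of the members' refitted fold changes kept their sign and 8 changed it. The reversed values were -0.058 and -0.014 for miR-99b (without TghuTNF replicate 1 and without WT replicate 2), 0.087 for miR-125a-3p and 0.051 for miR-125a-5p (without TghuTNF replicate 2), 0.043 for miR-100 (without WT replicate 2), 0.092 for miR-100 and 0.010 for miR-99a (perfect matches) and 0.072 for miR-125a-5p (at most 1 mismatch). Leaving out a library gave -0.17 to 0.043 for miR-100, -0.45 to 0.087 for miR-125a-3p, -0.53 to 0.051 for miR-125a-5p and -0.058 to 0.25 for miR-99b. The count over all miRNAs, 59, was 93 with no filter, 14 with a mean of at least 100 CPM (fewer miRNAs tested, 135, of which 6 were members) and 49 to 153 when a library was left out, the highest without TghuTNF replicate 1. Upper quartile factors moved the median log2 fold change of all miRNAs to -0.10, against 0.0056 with TMM. Changes in log2 odds of a perfect match reversed without TghuTNF replicate 2 for miR-125b-5p (0.11), miR-99b (0.21) and miR-99b* (0.22), without WT replicate 1 for miR-125b-3p (0.067) and without WT replicate 2 for miR-99b (0.024); the lowest values with a library left out were -1.04, -0.23, -0.60 and -0.72 for miR-125b-5p, miR-99b, miR-99b* and miR-125b-3p. Arm ratio changes reversed with perfect matches for miR-125a (0.23) and for miR-125b-5p over miR-125b-3p (0.19). With a library left out they ran from -0.19 to 0.019 for miR-125b-5p over miR-125b-3p (highest without WT replicate 2) and from -0.26 to 0.023 for miR-99b (highest without WT replicate 1). The cause of these reversals was not tested. The fall of miR-351 was called in all 11 alternatives in which it was tested, which were run for it after seeing the data (log2 fold change -2.42 without TghuTNF replicate 1 to -1.37 without TghuTNF replicate 2; adjusted p at most 0.0199). limma called 0 arm ratios and 0 odds in every alternative run.

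Replicate numbers are shared between genotypes, but no label says that they mark pairs; deviations of same-numbered libraries correlated over miRNAs with r = -0.088. With the replicate block edgeR called 87 miRNAs, 34 higher and 53 lower, and 0 members. At an unadjusted p under 0.05 edgeR had 2 members with this block and 1 with a mean of at least 100 CPM, against 0 in the main fit. The smallest change that 2 libraries a genotype could show was not measured.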
